A study of Mus musculus with 10 samples.

Results

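The genes described here belong to the amino acid arm of the ATF4 stress response. 9 genes, *Atf4*, *Ddit3*, *Trib3*, *Chac1*, *Asns*, *Sesn2*, *Atf5*, *Cth* and *Slc3a2*, were chosen by their symbol, and all 9 were listed in each of the tables of 35275 genes. RNA-seq of 10 mouse skin tumors gave their levels, where 5 tumors carried the label LDHA-/- and the other 5 the label wild type. The study deleted floxed *Ldha*, the gene of lactate dehydrogenase A, in hair follicle stem cells with the inducible K15CrePR or Lgr5CreER allele, together with floxed p53, and also raised tumors with DMBA/TPA. For the study as a whole, mice of both sexes were used about equally, and each model began treatment at the same postnatal age. Cre was induced with mifepristone for K15CrePR and with tamoxifen for Lgr5CreER. The methods used here do not state which model or induction the sequenced tumors had, nor their sex or age at harvest. The groups can therefore be given only by their genotype label, and alleles shared by both groups cannot be given for them. The mice were of a mixed C57BL6/FVB background, and some tumors of the deletion mice were mosaic for *Ldha* or for the enzyme's activity. The labels name squamous carcinoma cells, but the protocol names whole fresh tumors, so each value also holds RNA of other cells in the tumor. In such bulk samples fewer cells of a type and less RNA per cell cannot be told apart.

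ATF4 is a transcription factor whose mRNA is translated better when the initiation factor eIF2 is phosphorylated. GCN2 (*Eif2ak4*) phosphorylates eIF2 when uncharged tRNA builds up, and PERK (*Eif2ak3*), PKR (*Eif2ak2*) and HRI (*Eif2ak1*) do so on other stresses. The ATF4 protein pairs with C/EBP proteins on a composite site, the C/EBP-ATF response element, and raises genes for amino acid synthesis, uptake and tRNA charging. Since much of the control of ATF4 is translational, its mRNA is not a measure of its protein, and its targets are commonly read in its place. Serine and aspartate synthesis need NAD+, which lactate dehydrogenase regenerates from NADH.

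Promoter sequences were searched for the core TGATGNAA, or TTNCATCA when it lies on the other strand, in windows from 250 bases before to 50 bases after the start site (RefSeq, GRCm38.p6). Of all 32851 such promoters 3.97% held it. Counted by gene, 1219 of 27025 held it. A promoter was found for 8 of the 9 genes, all but *Cth*, and 3 of the 8 held the core: *Asns*, *Chac1* and *Trib3*. No match was found in the windows of *Atf4*, *Ddit3*, *Sesn2*, *Atf5* and *Slc3a2*. The sequences are shown for these 3 genes and, for comparison, for *Gars* and *Tars*, tRNA synthetase genes whose levels followed *Asns* most closely among those with the core; they were chosen after their values were seen. Each is written 5′ to 3′ on the strand of the gene, with the core in capitals.
*Asns*, chr6:7693215-7693242, minus strand: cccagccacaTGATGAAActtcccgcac
*Chac1*, chr2:119351039-119351066, plus strand: ttccctgccgTTGCATCActcctgccag
*Trib3*, chr2:152344029-152344056, minus strand: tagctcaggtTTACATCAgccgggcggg
*Gars*, chr6:55037961-55037988, plus strand: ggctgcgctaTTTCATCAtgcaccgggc
*Tars*, chr15:11399656-11399683, minus strand: aggagtcccgTTGCATCAgctggttagc
Only the *Asns* promoter holds the core in the forward orientation among these 5. Its core begins at position -23 relative to the start site, that of *Chac1* at -193 and that of *Trib3* at 15, past the start. Among the cytosolic aminoacyl-tRNA synthetase genes 5 of the 13 with a promoter entry held the core, namely *Aars*, *Gars*, *Iars*, *Tars* and *Yars*. It was found in 3 of 9 genes of bZIP partners and feedback regulators (*Atf3*, *Jdp2* and *Nupr1*), which had 15 promoters, and in 0 of 16 genes for chaperones and folding enzymes of the endoplasmic reticulum. Serine and one-carbon enzymes had it in 2 of 11 genes, amino acid transporters in 2 of 7 and secreted and other targets in 3 of 11. Upstream sensors had it in 0 of 12 genes and mitochondrial stress genes in 0 of 6. A match is a description of the letters in the window and not evidence of binding.

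The tumors differed widely in what they contained. Total counts were 12969508 to 17694201 per tumor. The summed level of 12 skeletal muscle genes was 138504 CPM (counts scaled to the library total, written as CPM) in *Ldha*-null tumor 1, or 13.9% of its counts, against 47.6 to 266 CPM in the other 9 tumors. The summed level of 12 keratinocyte genes was 78951 CPM in *Ldha*-null tumor 3 and 77731 CPM in wild-type tumor 5, against 546 to 6590 CPM in the 7 tumors that remain when *Ldha*-null tumor 1 is set aside too. The first principal component, with 43.4% of the variance, separated these 3 tumors from the other 7. *Krt14*, the basal keratin, reached 138 to 28691 FPKM (fragments per kilobase of gene, scaled to the library total) in the wild-type group. *Vim*, a mesenchymal filament, ran from 198 to 4226 FPKM in the *Ldha*-null group and from 1485 to 6043 FPKM in the wild-type group. *Ptprc*, the pan-leukocyte marker, was found in every tumor at 1.88 to 39.0 FPKM, and *Ckm*, the muscle creatine kinase, at 5646 FPKM in *Ldha*-null tumor 1. *Ldha* itself ran from 246 to 1882 FPKM in the tumors labelled *Ldha*-null and from 340 to 2824 FPKM in those labelled wild type, so that gene-level counts did not separate the labels. Reads from outside a deleted exon would still be counted, and the names of the groups below are therefore those of the labels.

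All 9 genes were expressed in every tumor, with 27 to 6146 fragments per gene and tumor. *Atf4* had the highest median level over the 10 tumors at 152 FPKM and exceeded *Asns*, the next in order, in all 10 tumors. *Asns* (87.0 FPKM) and *Slc3a2* (73.0 FPKM) came next and could not be ordered, since *Asns* was the higher in 6 of 10 tumors. *Atf5* stood at 47.1 FPKM and was below *Slc3a2* in 6 of 10 tumors only. *Ddit3* had a median of 33.9 FPKM, *Trib3* of 17.1 FPKM and *Chac1* of 7.40 FPKM. *Sesn2* (4.56 FPKM) and *Cth* (4.24 FPKM) were lowest, and *Sesn2* was the higher in 6 of 10 tumors. The order depends on the gene length behind FPKM: the deposited length gave the deposited FPKM within 1% for 3 of the 9 genes, and with that length *Asns* fell from rank 2 to rank 4, at 42.5 FPKM. Comparisons of the same gene between tumors do not depend on it.

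The genotype groups overlapped for every one of the 9 genes, and none passed the test. In the quasi-likelihood test of edgeR, adjusted by Benjamini-Hochberg over 15176 genes, 0 of the 9 genes had an adjusted p under the threshold of 0.05, and 0% of all tested genes had one. By edgeR 0 of 9 had an unadjusted p under 0.05, against 3.96% of all tested genes. DESeq2 and limma also gave 0 of 9 after adjustment. In DESeq2 the unadjusted p of *Cth* was 0.0235, and those of the other genes were above 0.05, except that *Chac1* was given none. The log2 fold change, labelled *Ldha*-null over labelled wild type, was above 0 for 4 genes and below 0 for 5, with a median of -0.10 beside 0.02 over all tested genes. Its 95% interval lay within a 2-fold change in either direction for 4 of the 9 genes: *Atf4*, *Ddit3*, *Asns* and *Atf5*. The exact permutation test of log2 CPM, which can reach 0.00794 with 5 tumors against 5, gave 0 of 9 genes under 0.05. Whether each tumor came from a separate mouse is stated only for the series as a whole.

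**Figure D1:**
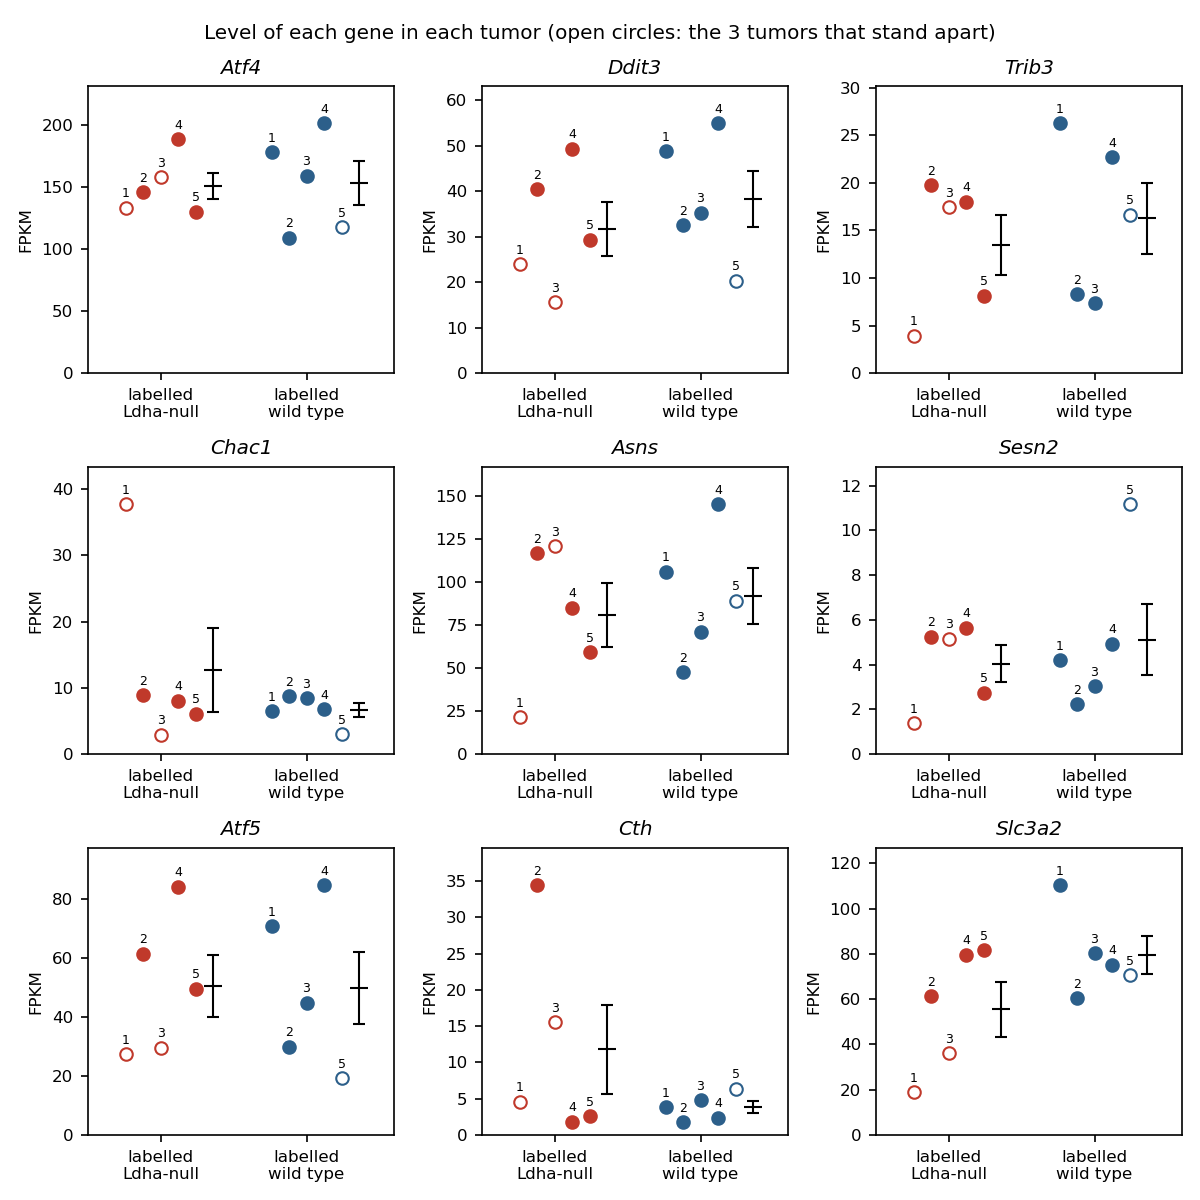
Level in FPKM (vertical axes, from 0) of each of the 9 genes in the 5 tumors labelled *Ldha*-null and the 5 labelled wild type. Each circle is 1 tumor with its number, open circles are the 3 tumors that stand apart, and the bar beside each group is the mean ± SEM (n = 5). The groups overlap in every panel, and *Ldha*-null tumor 1 stands at 37.7 FPKM in *Chac1* and *Ldha*-null tumor 2 at 34.4 FPKM in *Cth*.

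Of the transcription factors, *Atf4* varied least. Its level in *Ldha*-null tumors 1 to 5 was 133, 146, 158, 189 and 130 FPKM, and in wild-type tumors 1 to 5 it was 178, 109, 159, 201 and 118 FPKM. The highest and the lowest value both lay in the wild-type group, 1.85-fold apart, and the means were 151 ± 10.6 (SEM, n = 5) and 153 ± 17.6 FPKM. Between the groups the fitted log2 fold change was 0.19 (95% interval -0.42 to 0.79), opposite in sign to the FPKM means, and 0.03 without *Ldha*-null tumor 1, which had the highest TMM-scaled *Atf4*.

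*Ddit3* encodes CHOP, a C/EBP-family factor linked to cell death under prolonged stress. It was at 23.9, 40.4, 15.6, 49.3 and 29.3 FPKM across *Ldha*-null tumors 1 to 5. In wild-type tumors 1 to 5 it was at 48.8, 32.5, 35.3, 54.9 and 20.3 FPKM. The lowest tumors were *Ldha*-null tumor 3 and wild-type tumor 5, which also had the most keratinocyte RNA. Its log2 fold change was -0.12 (95% interval -0.85 to 0.60). *Ddit3* overlaps the 3′ end of *Mars* on the opposite strand, and since the files do not state stranded counting, fragments of the shared stretch cannot be assigned with certainty.

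*Atf5* encodes a bZIP factor related to ATF4 that also serves the mitochondrial stress response. It reached 27.3, 61.4, 29.6, 84.0 and 49.5 FPKM across *Ldha*-null tumors 1 to 5 and 70.7, 29.8, 44.8, 84.4 and 19.2 FPKM across wild-type tumors 1 to 5. The group means of 50.3 ± 10.5 and 49.8 ± 12.2 FPKM were nearly equal, while single tumors differed 4.40-fold. Its gene overlaps *Nup62* and *Il4i1* on the opposite strand.

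*Trib3* encodes a pseudokinase that binds ATF4 and damps its activity. In the *Ldha*-null tumors it was at 3.92, 19.7, 17.4, 18.03 and 8.15 FPKM. In the wild-type tumors it was at 26.3, 8.32, 7.37, 22.7 and 16.7 FPKM. Each genotype thus held tumors on both sides of a gap, and the log2 fold change was -0.19 (95% interval -1.22 to 0.84).

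*Chac1* encodes an enzyme that breaks down glutathione and is among the most inducible targets of ATF4. *Ldha*-null tumor 1 had 37.7 FPKM, and *Ldha*-null tumors 2 to 5 had 8.88, 2.92, 8.06 and 6.11 FPKM. The wild-type tumors had 6.43, 8.69, 8.38, 6.73 and 2.98 FPKM. The fitted log2 fold change of 1.52 (95% interval -0.20 to 3.23; edgeR adjusted p = 0.999) rested on that tumor and was -0.06 without it. *Ldha*-null tumor 1 is the tumor with 138504 CPM of muscle genes, and the part of muscle RNA in the *Chac1* level was not tested. Among the other 9 tumors the lowest levels were in *Ldha*-null tumor 3 and wild-type tumor 5, the tumors rich in keratinocyte RNA.

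*Sesn2* encodes sestrin 2, a leucine-binding protein that restrains mTORC1. Its levels were 1.39, 5.23, 5.16, 5.65 and 2.74 FPKM in the *Ldha*-null tumors and 4.18, 2.21, 3.02, 4.93 and 11.2 FPKM in the wild-type tumors. Wild-type tumor 5 was the highest of the 10 tumors. A log2 fold change of -0.29 (95% interval -1.39 to 0.80) became 0.29 without it. The same tumor had the highest summed level of 10 hypoxia-induced genes, 2222 CPM. The next highest was *Ldha*-null tumor 1, at 1587 CPM, which had the lowest *Sesn2* in FPKM. The part of hypoxia in the *Sesn2* level was not tested. Its gene overlaps *Gm12981* on the same strand, which had a median of 7 fragments per tumor.

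The enzymes of amino acid synthesis differed from each other in how they varied. *Asns* encodes asparagine synthetase. It was at 21.5, 117, 121, 85.0 and 59.0 FPKM across *Ldha*-null tumors 1 to 5 and at 106, 47.6, 71.0, 145 and 89.0 FPKM across wild-type tumors 1 to 5. The lowest tumor was the muscle-rich *Ldha*-null tumor 1, and the other 9 tumors spanned 47.6 to 145 FPKM with both genotypes at each end. Between the groups it had a log2 fold change of -0.10 (95% interval -0.998 to 0.79).

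*Cth* encodes cystathionine gamma-lyase, the enzyme that yields cysteine in transsulfuration. It was at 4.62, 34.4, 15.5, 1.82 and 2.58 FPKM in the *Ldha*-null tumors and at 3.85, 1.74, 4.81, 2.41 and 6.38 FPKM in the wild-type tumors. *Ldha*-null tumors 2 and 3 exceeded every other tumor, and the remaining 3 lay within the wild-type range. The log2 fold change of 1.72 had a 95% interval of -0.01 to 3.45 (edgeR adjusted p = 0.999), and it was 0.99 without *Ldha*-null tumor 2. Its exact permutation p was 0.262. The leukocyte list was highest in *Ldha*-null tumor 2, at 7296 CPM. It was next highest in wild-type tumor 2, at 5225 CPM, the tumor with the lowest *Cth*, and stood at 2533 CPM in *Ldha*-null tumor 3. The part of leukocyte RNA in the *Cth* level was not tested.

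*Slc3a2* encodes CD98 heavy chain, the partner of the light chains that carry leucine and cystine. Levels were 18.8, 61.3, 36.1, 79.6 and 81.5 FPKM in the *Ldha*-null tumors and 110, 60.5, 80.4, 75.3 and 70.7 FPKM in the wild-type tumors. The 2 lowest tumors were *Ldha*-null tumors 1 and 3, and the others overlapped. The log2 fold change was -0.47 (95% interval -1.07 to 0.12; exact permutation p = 0.0714), and -0.21 in the 7 tumors.

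**Figure D2:**
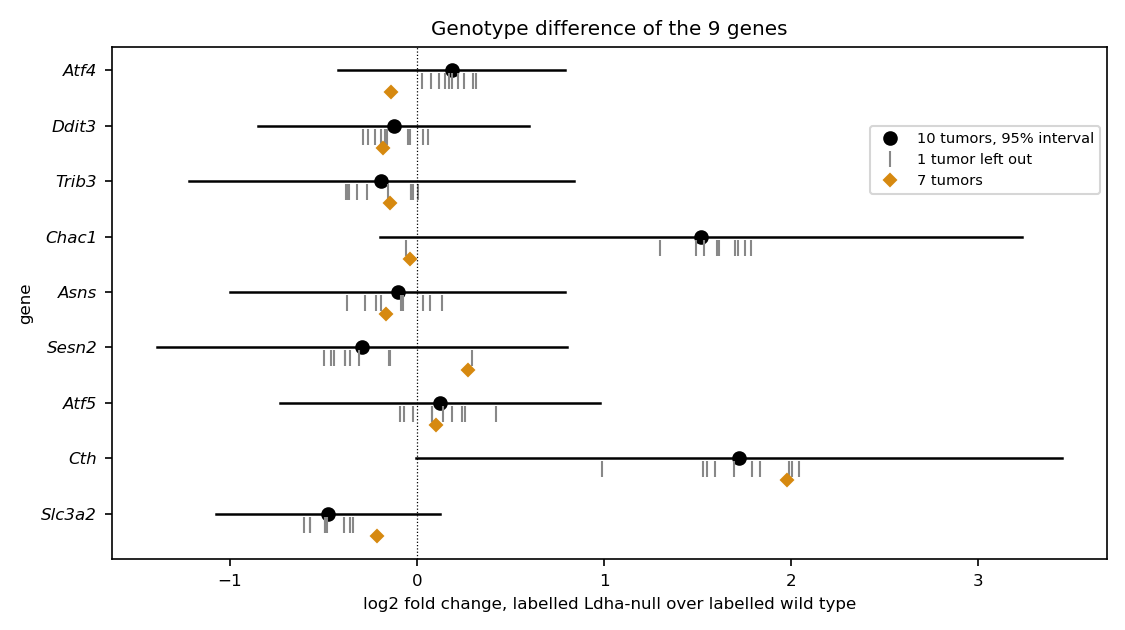
Log2 fold change (horizontal axis, labelled *Ldha*-null over labelled wild type) of the 9 genes (vertical axis). Black points and lines are the edgeR estimate over 10 tumors with its 95% interval, grey ticks the estimates with 1 tumor left out, and orange diamonds the estimate in 7 tumors. Each interval includes 0, and for *Chac1* a grey tick and the diamond lie near 0, at -0.06 and -0.03.

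The tumors that stand apart shifted the 9 genes in different ways. In FPKM, *Ldha*-null tumor 1 had the lowest level of all 10 tumors in 4 genes (*Trib3*, *Asns*, *Sesn2* and *Slc3a2*) and the highest in *Chac1*, while its *Atf4* lay inside the range of the others. In TMM-scaled log2 CPM, the scale of the test, its *Atf4* was the highest of the 10 (8.64, next 8.39) and its *Sesn2* (3.08) was above that of wild-type tumor 2 (2.82). *Ldha*-null tumor 3 and wild-type tumor 5 had the lowest *Ddit3*, the lowest *Chac1* and, in the wild-type tumor, the lowest *Atf5*, but *Asns* at 121 and 89.0 FPKM and *Trib3* at 17.4 and 16.7 FPKM. Wild-type tumor 4 had the highest level in 4 genes (*Atf4*, *Ddit3*, *Asns* and *Atf5*). Within one tumor, therefore, *Ddit3* and *Asns* could lie at opposite ends of their ranges. Spread was also unequal among the genes: in the 7 tumors the SD of log2 CPM was 0.25 for *Chac1*, 0.28 for *Slc3a2*, 0.35 for *Atf4*, 0.81 for *Trib3* and 1.47 for *Cth*, beside a median of 0.41 over all tested genes.

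To ask whether the genes rose and fell together, log2 CPM was compared between each of the 36 pairs across the 7 tumors that resembled each other. Of the 36 pairs 31 had a positive Pearson r, with a median of 0.43, whereas over all pairs of tested genes the median was 0.00 and 50.2% were positive. An r of 0.8 or more was found in 14 of 36 pairs (38.9%), against 2.67% of all pairs of tested genes. After Benjamini-Hochberg adjustment over the 36 pairs 0 pairs had an exact permutation p under 0.05 with Pearson's r, and 0 with Spearman's rho, while 14 pairs had an unadjusted p under 0.05. With 7 tumors these correlations are a description, and the pairs share tumors and libraries.

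All 14 of those pairs lay among 6 genes: *Atf4*, *Ddit3*, *Trib3*, *Asns*, *Sesn2* and *Atf5*. This grouping was made after the values were seen. The 15 pairs among them had r from 0.73 to 0.92 and rho from 0.54 to 0.96. The highest r were between *Sesn2* and *Atf5* (r = 0.92, rho = 0.82; adjusted permutation p = 0.0548), between *Atf4* and *Ddit3* (r = 0.91, rho = 0.93; adjusted permutation p = 0.0548) and between *Atf4* and *Atf5* (r = 0.91, rho = 0.96; adjusted permutation p = 0.0548). *Asns* correlated with *Trib3* at r = 0.88 (rho = 0.79; adjusted permutation p = 0.0627). The levels showed the same: for 5 of the 6 genes, *Atf4* excepted, the 3 lowest of the 7 tumors were *Ldha*-null tumor 5 and wild-type tumors 2 and 3, so tumors of both labels lay on both sides.

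Without the 2 tumors farthest from the median of the gene named first, r among the 15 pairs ran from 0.34 to 0.96, and 9 pairs stayed at 0.8 or more. *Atf4* with *Trib3*, *Asns* and *Sesn2* dropped to 0.39, 0.43 and 0.34, so those relations rest on the 2 tumors left out. *Trib3* was split into 3 tumors at 7.37 to 8.32 FPKM and 4 tumors at 18.03 FPKM or more, and its correlations follow that gap, within which they could not be tested.

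The other 3 genes did not follow the 6. *Slc3a2* had r from 0.25 to 0.59 with them, *Chac1* from -0.16 to 0.18 and *Cth* from 0.01 to 0.42. *Chac1* was thus not higher where *Asns* and *Trib3* were higher. It varied little in the 7 tumors (SD of log2 CPM 0.25), which limits what its r can show. Between *Chac1* and *Slc3a2* r was -0.55 (rho = -0.50; adjusted permutation p = 0.411).

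**Figure D3:**
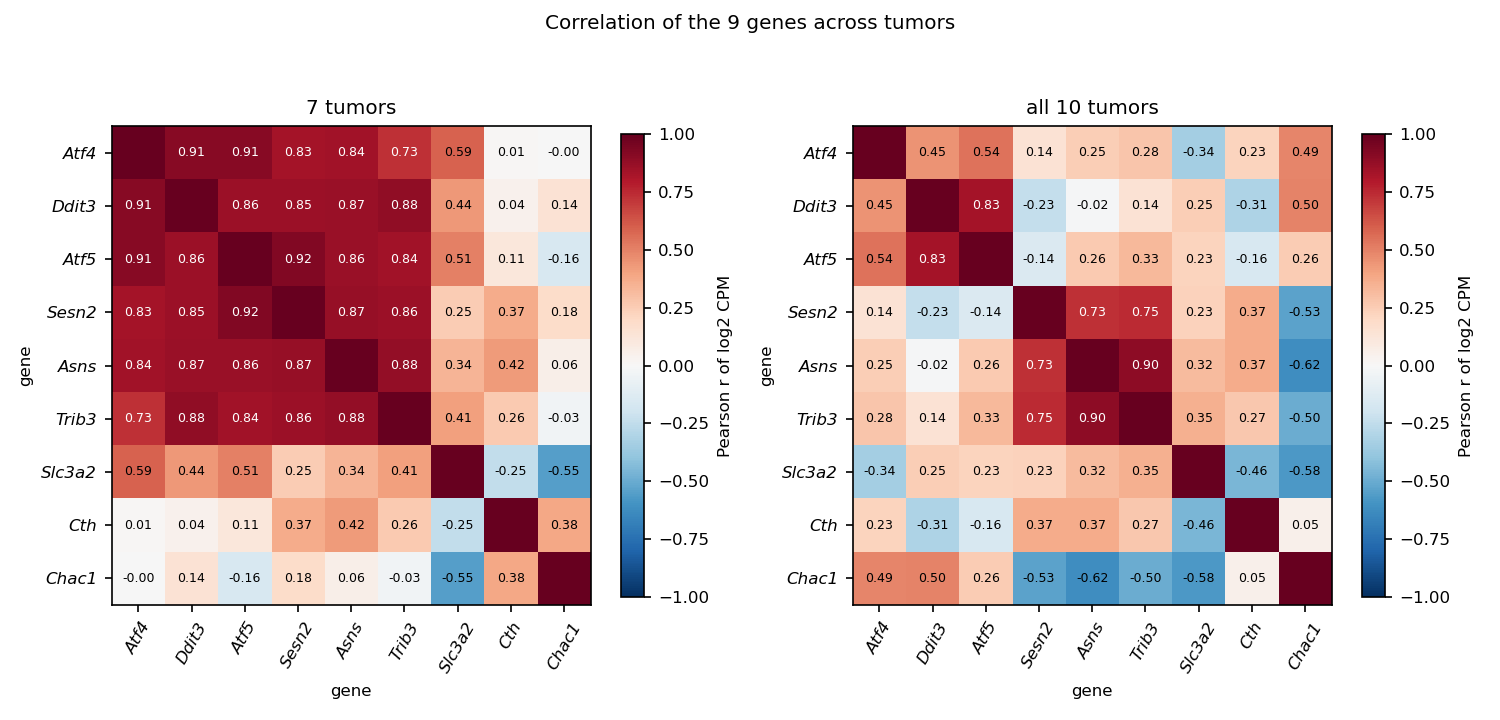
Pearson r of log2 CPM for each pair of the 9 genes (both axes), in 7 tumors (left) and in all 10 tumors (right); the color scale runs from -1 to 1. On the left the 6 genes from *Atf4* to *Trib3* form a block with r from 0.73 to 0.92, while on the right *Ddit3* with *Atf5* (0.83) and *Asns* with *Trib3* (0.90) keep a high r and *Asns* with *Ddit3* is at -0.02.

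**Figure D4:**
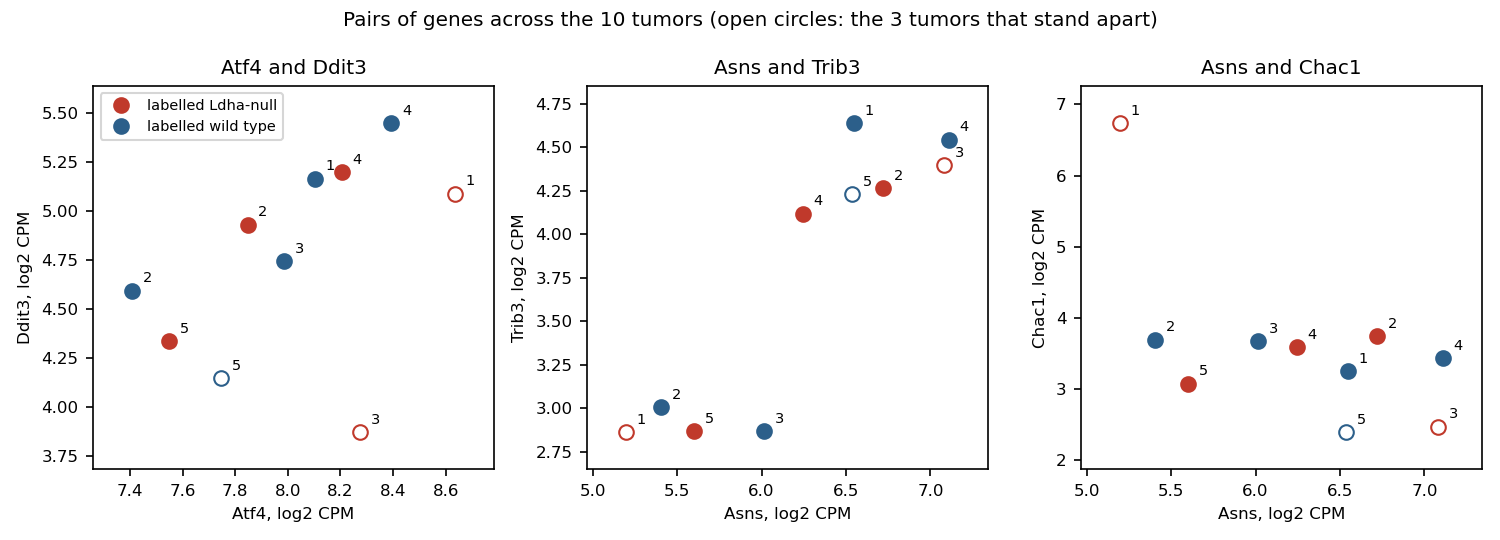
Log2 CPM of *Ddit3* against *Atf4*, of *Trib3* against *Asns* and of *Chac1* against *Asns*; each circle is 1 of the 10 tumors with its number, and open circles are the 3 tumors that stand apart. *Ldha*-null tumor 3 and wild-type tumor 5 lie below the other tumors in *Ddit3* but among the high ones in *Trib3*, and *Ldha*-null tumor 1 is alone at the top in *Chac1*.

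Summed marker levels of the 7 tumors moved with the same genes. The 12 mesenchymal genes summed to 14140 to 28907 CPM in these tumors. The list did not move as a whole: with *Atf4*, r was 0.96 for *Col1a2*, 0.88 for *Fn1* and 0.83 for *Sparc*, but 0.31 for *Vim*, 0.02 for *Zeb1*, -0.15 for *Pdgfra* and -0.75 for *Zeb2*. Their sum correlated with *Ddit3* at r = 0.97 (rho = 1; permutation p = 0.000198, the smallest that 7 tumors can give; adjusted p = 0.0179 over 90 relations). With *Atf4* it was r = 0.94 (rho = 0.93; adjusted permutation p = 0.0536), with *Sesn2* 0.91, with *Atf5* 0.89, with *Asns* 0.84 and with *Trib3* 0.81. With *Chac1* it was 0.22, with *Cth* 0.07 and with *Slc3a2* 0.37. The genes not in the block also had the lowest r with the mesenchymal list. The block was chosen from the same 7 tumors, so this is not separate evidence.

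The sum of 10 hypoxia-induced genes, 441 to 1025 CPM in these tumors, correlated with *Atf4* at r = 0.96 (rho = 0.86; adjusted permutation p = 0.0446) and with *Sesn2* at r = 0.92 (rho = 0.86; adjusted permutation p = 0.0446). This list did not move as a whole either: 4 of its 10 genes reached an r of 0.8 with *Atf4* and 2 with *Sesn2*. With *Sesn2*, r was 0.97 for *Pgk1* and 0.88 for *P4ha1*, but 0.56 for *Bnip3*, 0.34 for *Ankrd37* and -0.21 for *Adm*. Without the 2 tumors farthest from the median of the list, r was 0.92 for *Ddit3* with the mesenchymal list, and 0.82 for *Atf4* and 0.68 for *Sesn2* with the hypoxia list. *Slc3a2* was lower where the keratinocyte list was higher, at r = -0.93 (rho = -0.89; adjusted permutation p = 0.0446; -0.77 without the 2 farthest tumors). Of the 90 relations of 9 genes with 10 lists 4 had an adjusted p under 0.05 with Pearson's r, the ones of *Ddit3*, *Atf4*, *Sesn2* and *Slc3a2* just given. By rank 1 of the 90 did, *Ddit3* with the mesenchymal list (adjusted permutation p = 0.0357). The keratinocyte list ran the other way in the 6 genes, with r from -0.80 for *Atf4* to -0.49 for *Sesn2*. Its genes differed: with the 6 genes r was -0.90 to -0.80 for *Cdh1*, the epithelial cadherin, and -0.75 to -0.43 for *Krt14*. *Krt15* had r from -0.23 to 0.18, and the other keratinocyte genes listed had a negative r with each of the 6. The proliferation list had r of -0.82 with *Atf4* and -0.76 with *Ddit3*. The part of mesenchymal, keratinocyte and proliferating content and of hypoxia in the covariation of the 6 genes was not tested. In the same 7 tumors the muscle list was at 89.5 to 266 CPM, that is near 0 beside *Ldha*-null tumor 1.

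**Figure D5:**
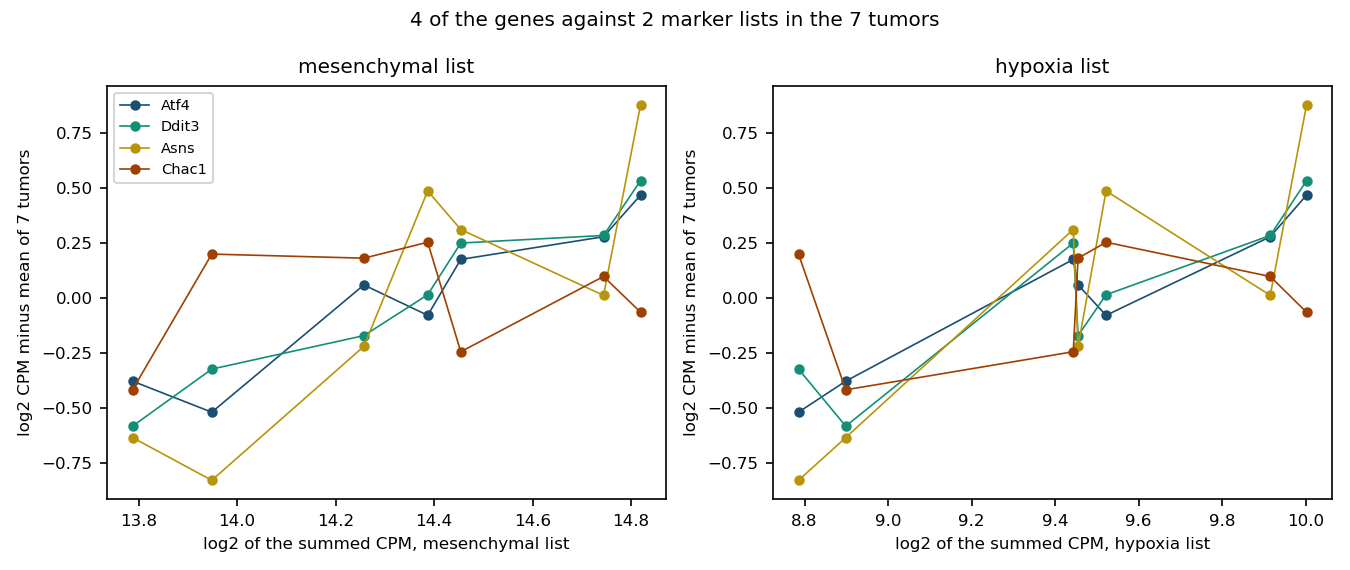
Log2 CPM of *Atf4*, *Ddit3*, *Asns* and *Chac1*, each minus its mean over the 7 tumors (vertical axes), against the log2 of the summed CPM of the mesenchymal list (left) and of the hypoxia list (right); points are tumors and lines join them in order of the list. *Atf4*, *Ddit3* and *Asns* are higher toward the right of both panels, with r of 0.84 to 0.97, and *Chac1* has r of 0.22 and 0.18.

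Other genes of the pathway showed no genotype difference that passed the test. Of 105 tested genes in 8 lists, 0 were called higher and 0 lower by edgeR after adjustment over all genes. At an unadjusted p under 0.05 there were 5 of 105, against 3.96% of all tested genes, and 0 without *Ldha*-null tumor 1. The lists are the upstream sensors, bZIP partners, serine and one-carbon enzymes, amino acid transporters, tRNA synthetases, secreted and other targets, chaperones of the endoplasmic reticulum, and mitochondrial stress genes.

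Among the sensors 0 of 15 reached an unadjusted p under 0.05. *Impact*, an inhibitor of GCN2 activation, had a log2 fold change of -0.47 (SE 0.28) and *Nck1*, an adaptor linked to eIF2 phosphatase, one of 0.37 (SE 0.30). Without wild-type tumor 1 *Impact* was at -0.22, and without wild-type tumor 2 *Nck1* was at 0.64. Of the 10 bZIP partners and feedback regulators 1 reached it, *Atf3*, a stress-induced bZIP factor. *Atf3* was at 10.6, 8.84, 12.1, 12.6 and 17.6 FPKM in the *Ldha*-null tumors and at 5.72, 12.2, 10.2, 6.28 and 5.17 FPKM in the wild-type tumors. The groups overlapped, and its log2 fold change was 0.83 (SE 0.32; edgeR adjusted p = 0.999). *Ddit4*, an mTORC1 inhibitor also raised in hypoxia, had a log2 fold change of -0.86 (SE 0.61), and -0.49 without wild-type tumor 5.

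Among 12 serine, one-carbon and related enzymes 1 reached an unadjusted p under 0.05, *Gpt2*, the mitochondrial alanine aminotransferase, with a log2 fold change of 1.73 (SE 0.67). *Ldha*-null tumor 1 had 111 FPKM and the other 9 tumors had 14.1 to 30.9 FPKM, and its log2 fold change was 0.45 without that tumor. *Cbs*, which feeds *Cth* in transsulfuration, had a log2 fold change of 1.71 (SE 0.80) at 1.28 ± 0.620 FPKM in the *Ldha*-null group; it was 0.90 without *Ldha*-null tumor 3 and -0.29 in the 7 tumors. Of the 11 transporters 1 reached it, *Slc43a1*, a carrier of large neutral amino acids, with 12.4 FPKM in that same tumor against 0.421 to 1.05 FPKM elsewhere. *Slc7a6*, which pairs with *Slc3a2*, had a log2 fold change of -0.72 (SE 0.37), and -0.31 without wild-type tumor 5.

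The 20 synthetases showed 0 with an unadjusted p under 0.05, with *Iars* at a log2 fold change of 0.46 (SE 0.24) and *Dars* at 0.56 (SE 0.30). Without *Ldha*-null tumor 1 they were at 0.23 and 0.30, and *Dars* was at 0.020 in the 7 tumors. Among 11 tested secreted and other targets 2 reached it, *Stc2* and *Herpud1*. *Stc2*, a secreted glycoprotein, was at 7.77, 8.04, 8.41, 7.24 and 7.16 FPKM in the *Ldha*-null tumors and at 4.79, 4.67, 6.23, 6.91 and 2.41 FPKM in the wild-type tumors. The groups did not overlap in FPKM, as was so for 0.165% of all tested genes, but they overlapped in TMM-scaled log2 CPM (exact permutation p = 0.0238). Its log2 fold change of 0.87 (SE 0.34) did not pass the adjustment (edgeR adjusted p = 0.999) and was 0.33 in the 7 tumors. *Herpud1*, a component of degradation at the endoplasmic reticulum, reached 199 FPKM in *Ldha*-null tumor 1, against 38.3 to 62.0 FPKM elsewhere.

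Of the 19 chaperones and folding enzymes 0 reached an unadjusted p under 0.05, and the median log2 fold change was -0.10, beside 0.02 over all tested genes. *Calr*, a lectin chaperone, had a log2 fold change of -0.42 (SE 0.29) and *Pdia3*, its disulfide isomerase partner, one of -0.40 (SE 0.34); without *Ldha*-null tumor 1 they were at -0.26 and -0.19. The 7 mitochondrial stress genes had 0 as well, with *Oma1*, the protease that relays mitochondrial stress, at 0.64 (SE 0.34) and *Dnaja3*, a mitochondrial co-chaperone, at 0.55 (SE 0.43). Without *Ldha*-null tumor 1 these were 0.24 and -0.071.

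The pathway genes that followed *Asns* were sought by the same r of 0.8 or more in the 7 tumors, which 4.24% of all tested genes reached. It was reached by 4 of 20 synthetases (*Gars* 0.95, *Sars* 0.93, *Tars* 0.91 and *Cars* 0.84). Of 12 serine and one-carbon enzymes 3 reached it, *Aldh1l2* at 0.92, *Psat1* at 0.84 and *Mthfd2* at 0.83. Of the 11 secreted and other targets 2 did, *Sqstm1* and *Gadd45a*, both at 0.86, and of the 7 mitochondrial stress genes 3 did, *Dnaja3* at 0.92, *Hspd1* at 0.87 and *Hspa9* at 0.83. It was reached by 1 of 10 partners (*Jdp2*, 0.82), by 1 of 15 sensors (*Eif2b2*, 0.85), by 0 of 11 transporters and by 1 of 19 chaperones (*Dnajb11*, 0.91). *Manf*, a secreted protein of the endoplasmic reticulum, had r = -0.87 with *Asns*. The same composition differences apply: 4 of the 12 mesenchymal genes and 2 of the 10 hypoxia genes also reached 0.8 with *Asns*.

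An r of 0.8 or more with *Atf4* was reached by 5.54% of all tested genes. By that measure 3 of 15 sensors followed *Atf4*, namely *Ppp1r15a* (0.93), which encodes the stress-induced subunit of eIF2 phosphatase, *Gcn1l1* (0.84), the activator of GCN2, and *Eif2b3* (0.84). The opposite sign was seen for *Ppp1r15b* (-0.81), the constitutive subunit. Among the synthetases 3 of 20 followed it, *Cars* (0.90), *Rars* (0.86) and *Sars* (0.84). *Slc38a2*, a glutamine and alanine carrier, was the only one of 11 transporters to do so (0.88), and *Ddit4* the only one of 10 partners (0.92). Of the 7 mitochondrial stress genes 2 reached that r, *Lonp1* (0.91) and *Dnaja3* (0.81). Of the 11 secreted and other targets 1 did, *Ern1* (0.94). Serine and one-carbon enzymes had 0 of 12 and the chaperones 0 of 19, whereas 4 of the 10 hypoxia genes and 3 of the 12 mesenchymal genes reached it.

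The genes with the pattern most like the mean of the 9 were ranked by the lower of their r over 10 and over 7 tumors among 15167 genes. The ranking selects high values, so the r are descriptions. Among the first 10 were *Ost4*, *Pcbp2*, *Trmt12*, *Clptm1*, *Ctsd*, *Ncaph2*, *Znhit6*, *Osbp2* and *Sars*. *Ost4*, a subunit of oligosaccharyltransferase, had r of 0.92 over 10 tumors and 0.95 over 7, and *Sars*, the seryl-tRNA synthetase, 0.85 and 0.96. For *Asns* alone they were *Gars* (0.93 and 0.95), *Aldh1l2* (0.92 and 0.92) and *Eno1* (0.93 and 0.91), a glycolytic enolase. For *Trib3* the first 3 included *Ramp3* (0.94 and 0.97) and *Usp5* (0.92 and 0.99), and for *Atf4* they were *Tmem222* (0.92 and 0.98), *Tmem57* (0.90 and 0.98) and *Ap3s2* (0.89 and 0.96). *Gars* and *Aldh1l2* were in the lists of the pathway and the other genes named here for *Asns*, *Trib3* and *Atf4* were not.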

How the data were processed

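Total RNA of fresh tumors was enriched for mRNA on oligo(dT) beads by the authors and sequenced on a HiSeq2500. The submitters' processing notes name CASAVA 1.8, TopHat2 and mm10. The authors deposited counts of fragments per gene, made with HTSeq, and FPKM values computed from them; 0 columns were left unmapped. Strandedness and the annotation release: not given in the sources used here. The genotype test on counts used edgeR 4.0.16 in R 4.3.3 (filterByExpr, minimum count 10 and minimum total 15; TMM; quasi-likelihood F-test; 15176 genes; Benjamini-Hochberg over all of them, threshold 0.05). Alternatives used DESeq2 1.42.0 and limma 3.58.1. Log2 CPM had a prior count of 2, and the alternative on log2(FPKM) used a pseudocount of 0.1. For single genes an exact permutation test (two-sided) ran over 252 assignments, and pairs by all 5040 pairings of 7 tumors on the size of r. Marker lists were summed as CPM without TMM.

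The biological coefficient of variation was 63.4%, and p-values measure the spread between these tumors. The scripts were tested on simulated data. The 9 genes, the lists and the 7 tumors were chosen with earlier results of these data known. From each pathway list the genes with an unadjusted p under 0.05 were named, or the 2 with the smallest p, at most 4. Genes most like the 9 were ranked as described; some that met the rule are not reported here. Genes named for their r with *Asns* or *Atf4* were chosen after their values were seen.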

Additional observations from a re-analysis of the deposited data

Results flagged for a closer look

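In groups of 5 tumors a tumor was singled out when its gap to the nearest other tumor, as a share of the range of log2 CPM, exceeded 0.71 (Dixon's criterion). Of 50 groups of the 9 genes and the named pathway genes 4 had such a tumor, and chance flags about 1 in 20 groups. All 4 were in *Ldha*-null tumor 1, where muscle genes took 13.9% of the counts; the part of muscle RNA in these levels was not tested. *Slc43a1* had a gap ratio of 0.828, at 12.4 FPKM against 0.421 to 1.05 FPKM in the other *Ldha*-null tumors. *Herpud1* had 0.856, at 199 FPKM against 44.8 to 62.0 FPKM. *Pdia3* had 0.813, at 81.7 FPKM against 364 to 636 FPKM. *Oma1* had 0.740, at 20.7 FPKM against 12.8 to 16.8 FPKM. None of the 9 genes was singled out by this criterion, *Chac1* included, since *Ldha*-null tumor 3 widened its range.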

How the results depend on the processing

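The count of 0 of 9 genes past the adjusted threshold held in every fit run: RLE and upper-quartile factors, DESeq2, limma-voom with quality weights, limma on log2(FPKM + 0.1), both other filters, the exact test on FPKM, the 7 tumors, and each tumor left out. The count of 0 of 105 pathway genes held likewise where it was run. With the replicate number as a block 0 of the 9 genes and 0 pathway genes passed. The labels do not state whether same-numbered tumors belong together. Their deviations from the group means correlated at r from -0.511 to 0.551. That cannot decide it, since the tumors differed widely in tissue content. The count of pathway genes with an unadjusted p under 0.05 ran from 0 to 8, with 0 without *Ldha*-null tumor 1 or wild-type tumor 1.

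Signs of values that had not passed turned in some fits, and the cause was not tested. *Atf4* was at -0.095 with limma-voom and -0.14 in the 7 tumors. *Sesn2* was at 0.044 and 0.27 in the same fits, and *Chac1* at -0.035 in the 7 tumors. With each tumor left out the log2 fold change ran from 0.03 to 0.31 for *Atf4*, from -0.29 to 0.058 for *Ddit3*, from -0.38 to 0.0083 for *Trib3*, from -0.057 to 1.79 for *Chac1*, from -0.37 to 0.13 for *Asns*, from -0.50 to 0.29 for *Sesn2*, from -0.092 to 0.42 for *Atf5*, from 0.99 to 2.04 for *Cth* and from -0.60 to -0.34 for *Slc3a2*.

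Covariation depended on the choice of tumors and on centring. Over all 10 tumors the median r of the 36 pairs was 0.247, 2 pairs had r of 0.8 or more and 1 pair, *Asns* with *Trib3*, had an adjusted p under 0.05. Centred on genotype 8 pairs had one, all among the 6 genes, although centring was not allowed for in the p. By rank 6 pairs reached 0.8. With 1 of the 7 tumors left out the median ran from 0.361 to 0.627, the latter without *Ldha*-null tumor 2, the pairs at 0.8 or more from 11 to 15, and the pairs past the adjusted threshold stayed at 0. With the stricter core TGATGCAA, which 0.895% of all promoters and 279 of 27025 genes held, 1 of the 8 genes matched, *Chac1*.

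With 27 fragments at the lowest, *Cth* carried the widest counting error of the 9 genes. At 5 tumors against 5 the intervals of *Trib3*, *Chac1*, *Sesn2*, *Cth* and *Slc3a2* reached past a 2-fold change, so these data leave room for one.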
